A study of Mus musculus with 2 samples.

Results

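Fatty acid desaturases put double bonds into the carbon chains of lipids. The 10 mouse genes described here are the stearoyl-CoA desaturases Scd1, Scd2, Scd3 and Scd4, the polyunsaturated fatty acid desaturases Fads1 and Fads2 with their relatives Fads3 and Fads6, and the sphingolipid desaturases Degs1 and Degs2. They were chosen by gene symbol from the 50608 rows of the deposited table, of which 25979 are NONCODE identifiers, and each of the 10 had a row. RNA came from peritoneal macrophages, phagocytes of the abdominal cavity, of C57BL6J mice. The labels give a pool of both sexes and the developmental stage E15.5. One library came from cells treated with GW3965, a compound that activates the liver X receptors (LXRs), nuclear receptors for oxidised cholesterol. The other came from cells treated with DMSO, its solvent. The dose, the duration and the number of mice in a pool were not given in the sources used here. With 1 library per group no difference has a replicate check, and no test of the treatment was possible. The column read as GW3965 shares only the opening letters of its name with that sample's description, and every GW3965 value rests on that match.

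Stearoyl-CoA desaturases make monounsaturated from saturated acyl chains, chiefly oleate and palmitoleate, in the membrane of the endoplasmic reticulum. Fads2 and Fads1 act in turn, with elongation between them, to turn the essential linoleate and alpha-linolenate into the long polyunsaturated chains that macrophages store in phospholipids and draw on for prostaglandins and leukotrienes. Degs1 puts the double bond into dihydroceramide that makes it ceramide. In liver and macrophages LXR is known to act on lipogenic genes both directly and through the transcription factor Srebf1.

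The catalytic iron of these enzymes is held by histidine-rich boxes, and the first of them is shown because it lets the genes of a family be told apart in sequence. The stretches are coding sequence of GENCODE M21 transcripts with GRCm38 positions, written 5′ to 3′ on the gene's own strand. The capitals mark the box, from its first histidine codon to its last.
Scd1: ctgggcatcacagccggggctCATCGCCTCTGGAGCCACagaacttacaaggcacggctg
Scd2: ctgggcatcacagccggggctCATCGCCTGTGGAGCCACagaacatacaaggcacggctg
Scd3: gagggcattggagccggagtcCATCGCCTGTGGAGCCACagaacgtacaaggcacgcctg
Scd4: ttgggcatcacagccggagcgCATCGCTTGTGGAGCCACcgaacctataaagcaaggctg
Fads1: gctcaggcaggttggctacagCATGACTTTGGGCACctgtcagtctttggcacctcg
Fads2: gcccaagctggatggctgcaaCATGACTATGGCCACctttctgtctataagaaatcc
Fads3: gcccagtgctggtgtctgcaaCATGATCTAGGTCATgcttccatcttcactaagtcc
The Scd stretches lie in exon 3, at chr19:44403210-44403269 on the minus strand for Scd1 and on the plus strand at chr19:44298066-44298125 for Scd2, chr19:44234249-44234308 for Scd3 and chr19:44337527-44337586 for Scd4. The Fads stretches lie in exon 4, at chr19:10186378-10186434 on the plus strand for Fads1, chr19:10088747-10088803 on the minus strand for Fads2 and chr19:10054020-10054076 on the plus strand for Fads3. Scd1 and Scd2 differ at 2 of these 60 bases, while the other Scd pairs differ at 9 to 14. Fads1 and Fads2 differ at 17 of 57, and Fads3 differs from Fads1 at 26 and from Fads2 at 22.

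Likeness over the whole coding sequence bears on how well reads could be assigned. Scd1 and Scd2 are 90.4% identical there, Scd1 and Scd3 91.5%, and Scd4 is 83.8% to 84.7% identical to the others. Fads1, Fads2 and Fads3 are 62.9% to 69.8% identical, and Degs1 and Degs2 67.7%. All stretches of 100 bases in the annotated transcripts of a gene were sought in the transcripts of other genes, on either strand. Of these stretches, 2.58% in Scd1, 0.879% in Scd2, 2.49% in Scd3 and 0.463% in Scd4 also occur in another gene. None did in Fads1, Fads2, Fads3 and Degs1. In Fads6 the share was 0.32%, and in Degs2, through Evl, it was 7.22%. At 50 bases it was 4.56% in Scd1, 3.97% in Scd2, 6.57% in Scd3 and 5.54% in Scd4, and at most 0.354% in Fads1, Fads2, Fads3 and Degs1. The authors' treatment of a read with several matches was not given in the sources used here, so the low Scd3 and Scd4 values are uncertain beside the abundant Scd1 and Scd2.

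Values are FPKM, reads per kilobase of gene scaled to the depth, as deposited. The steps of the FPKM values gave a depth of 75287120 reads for the GW3965 library and 101866062 for the DMSO library, and from these the reads of each gene. A 95% interval beside a ratio is an exact Clopper-Pearson interval on these reads, which covers counting error only and says nothing about mice or cultures. Genes with a mean of at least 1 FPKM are called measured, and a gene counted as higher or lower at 1.5-fold on the scale of log2((GW3965 FPKM + 1)/(DMSO FPKM + 1)), which understates the change of low genes. The median of that log2 ratio over the 11889 measured rows was 0.24, and a log2 ratio with this median taken off is called centred. The makeup of the libraries also differed, with 3 rows above 200000 FPKM that held 65.9% of the FPKM sum in the GW3965 library and 79.7% in the DMSO library, and the part of this in the median was not tested. The 5 LXR target genes used as a check, among them Abca1 with 261 FPKM in the GW3965 library and 19.9 FPKM in the DMSO library, were all higher on both scales. The sterol transporter Abcg1 had 153 FPKM with GW3965 and 45.3 FPKM with DMSO, and Mylip, a ubiquitin ligase for the LDL receptor, had 26.8 FPKM with GW3965 and 5.41 FPKM with DMSO. Srebf1 and Lpcat3 are described with their lists.

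Scd1, Scd2 and Fads2 were higher in the GW3965 library by 1.5-fold or more, and none of the desaturase genes was lower. Of the 10 genes, 7 were measured, and the other 4 measured ones, Fads1, Fads3, Degs1 and Degs2, stayed within 1.5-fold. The same 3 were higher after centring. Among all measured rows, 3.46% were higher and 0.0757% lower as deposited, and 1.38% were higher and 0.336% lower after centring. The median log2 ratio of the 7 was 0.50, or 0.26 after centring, and 6 of the 7 lay above the median of all measured rows. Fads3, with a mean of 1.02 FPKM, passed the filter only through its GW3965 value. Scd3, Scd4 and Fads6 were below the filter in both libraries.

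**Figure D1:**
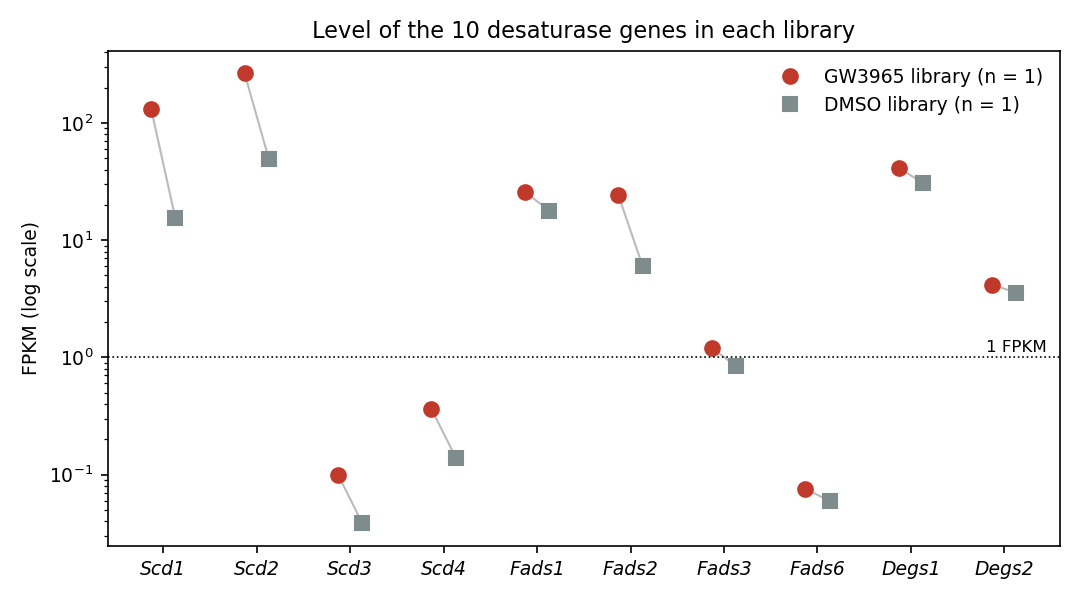
FPKM of the 10 desaturase genes on a log axis, with the GW3965 library as circles left of the DMSO library as squares, 1 library each; a line joins the 2 values of a gene, and the dotted line marks 1 FPKM. Scd2 is the highest gene in both libraries, Scd1 lies above Degs1 and Fads1 in the GW3965 library and below both in the DMSO library, and Scd3, Scd4 and Fads6 stay below 0.5 FPKM.

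Scd1, the main stearoyl-CoA desaturase of liver and fat, had 132 FPKM in the GW3965 library and 15.4 FPKM in the DMSO library. The ratio was 8.62 (95% counting interval 8.40 to 8.83), from 45783 reads with GW3965 and 7190 with DMSO. Its log2 ratio of 3.03 was the 2nd highest of the 11889 measured rows. It was also the 2nd of the 8513 measured rows whose symbol is a protein-coding gene of GENCODE M21 outside the Gm and Rik series. Of these, 2.15% were higher by 1.5-fold, and rows under symbols absent from M21 were left out. Scd2, the form best known from brain and from the embryo, had 266 FPKM in the GW3965 library and 49.4 FPKM in the DMSO library, a ratio of 5.38 (5.27 to 5.48). It had the highest level of the desaturases in both libraries, above 99.3% of measured rows in the GW3965 library and 96.5% in the DMSO library. For Scd1 these shares were 98.6% with GW3965 and 87.0% with DMSO. Between the libraries Scd2 differed by 216 FPKM and Scd1 by 117 FPKM, so Scd2 had the smaller ratio and the larger difference in level.

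The balance within the family also differed between the libraries. Scd1 stood at 0.498 of the Scd2 level in the GW3965 library and at 0.311 in the DMSO library, a ratio of ratios of 1.60 (95% counting interval 1.55 to 1.65), and no scaling of the libraries can change this value. The summed level of the 4 Scd genes was 398 FPKM in the GW3965 library and 64.9 FPKM in the DMSO library. Scd2 gave 66.7% of it in the GW3965 library and 76.1% in the DMSO library, and Scd1 gave 33.2% with GW3965 and 23.6% with DMSO. In bulk RNA, fewer cells of a type and less RNA per cell cannot be told apart, and this holds for every level given here. The exact length that Scd2 was divided by is not given. The smallest whole length that fits both values, 2595 bases, is shorter than its 5464 exon bases in M21. Its true reads may thus be a multiple of the 51899 with GW3965 and 13060 with DMSO used here, which would narrow its interval.

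Scd3 and Scd4, forms known from mouse skin and heart, were nearly silent. Scd4 had 0.362 FPKM in the GW3965 library and 0.139 FPKM in the DMSO library, from 96 reads with GW3965 and 50 with DMSO, a ratio of 2.60 (1.83 to 3.73). Scd3 had 0.0997 FPKM in the GW3965 library and 0.0384 FPKM in the DMSO library, from 23 reads with GW3965 and 12 with DMSO, a ratio of 2.59 (1.24 to 5.72). Other genes at this level also had ratios above 1. The 1083 olfactory receptor rows, genes mostly silent outside sensory tissue, had medians of 0.0690 FPKM in the GW3965 library and 0.0261 FPKM in the DMSO library, a ratio of 2.64, and the quartiles of their single ratios were 1.35 and 5.41. Over the 7451 rows with a gene symbol and a mean of 0.05 to 0.3 FPKM, the median ratio was 1.76, with quartiles of 1.30 and 2.71, so Scd3 and Scd4 lay near the upper quartile of these rows. Neither Scd gene was counted as changed, and the part that reads shared with Scd1 and Scd2 had in their values was not tested. Scd4 made up 0.091% of the summed Scd level in the GW3965 library and 0.215% in the DMSO library, and Scd3 still less.

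Fads2 carries out the first step of polyunsaturated fatty acid synthesis. It had 24.3 FPKM in the GW3965 library and 5.99 FPKM in the DMSO library, a ratio of 4.05 (3.75 to 4.38) and a log2 ratio of 1.85, or 1.61 after centring. Its log2 ratio was the 22nd highest of all measured rows and the 7th of the protein-coding ones matched by symbol. Its level was above 90.0% of measured rows in the GW3965 library and above 66.8% in the DMSO library. Fads1, which acts after Fads2 and makes arachidonate, had 25.8 FPKM in the GW3965 library and 17.9 FPKM in the DMSO library. Its ratio was 1.44 (1.39 to 1.49), and its log2 ratio was 0.50, or 0.26 after centring, which lies inside the central 90% of all measured rows (-0.27 to 0.28). Fads1 was thus higher in the GW3965 library beyond its counting error but did not reach 1.5-fold on either scale.

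Fads2 stood at 0.942 of the Fads1 level in the GW3965 library and at 0.335 in the DMSO library, a ratio of ratios of 2.81 (2.58 to 3.06). The levels of the pair were thus almost equal with GW3965 and well apart with DMSO. With GW3965 their 95% counting intervals, 23.3 to 25.2 FPKM for Fads2 and 25.2 to 26.4 FPKM for Fads1, just touched at the reads used here. The smallest length that fits Fads2, 1389 bases, is shorter than its 3295 exon bases in M21. Its true interval may thus be narrower, and whether the intervals touch is not settled. Fads3, a close relative that acts on sphingoid bases, had 1.21 FPKM in the GW3965 library and 0.839 FPKM in the DMSO library, a ratio of 1.44 (1.21 to 1.71). Relative to Fads1 it was at 0.0468 in the GW3965 library and 0.0469 in the DMSO library, a ratio of ratios of 0.998 (0.842 to 1.18). Fads6, whose substrate is not established, had 0.0757 FPKM in the GW3965 library and 0.0594 FPKM in the DMSO library, from 16 reads with GW3965 and 17 with DMSO. Its ratio of 1.27 (0.602 to 2.68) could not be told from 1 at this depth. Over the rows with a gene symbol and a mean of 0.05 to 0.3 FPKM, the quartiles of the ratio were 1.30 and 2.71. The Fads6 ratio thus lay just below the lower quartile of rows at its level. Fads1 gave 50.3% of the summed level of Fads1, Fads2 and Fads3 in the GW3965 library and 72.4% in the DMSO library, and Fads2 gave 47.4% with GW3965 and 24.2% with DMSO.

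Degs1, which turns dihydroceramide into ceramide, had 41.3 FPKM in the GW3965 library and 30.7 FPKM in the DMSO library. Its ratio was 1.34 (1.30 to 1.39), and its log2 ratio 0.41, or 0.17 after centring. Degs2, which also adds a hydroxyl group and so makes phytoceramide, had 4.16 FPKM in the GW3965 library and 3.56 FPKM in the DMSO library, a ratio of 1.17 (1.03 to 1.32). Its log2 ratio was 0.18 as deposited and -0.07 after centring, so its direction depended on the scale. Degs2 lies on the minus strand across the end of Evl, an actin regulator on the plus strand, and they share 278 exon bases. Evl had 43.6 FPKM in the GW3965 library and 40.5 FPKM in the DMSO library. No source states that the counting used the strand, so reads from the shared bases cannot be told apart, and the Degs2 level may hold Evl reads. Degs2 stood at 0.101 of the Degs1 level in the GW3965 library and at 0.116 in the DMSO library, a ratio of ratios of 0.868 (0.765 to 0.986).

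**Figure D2:**
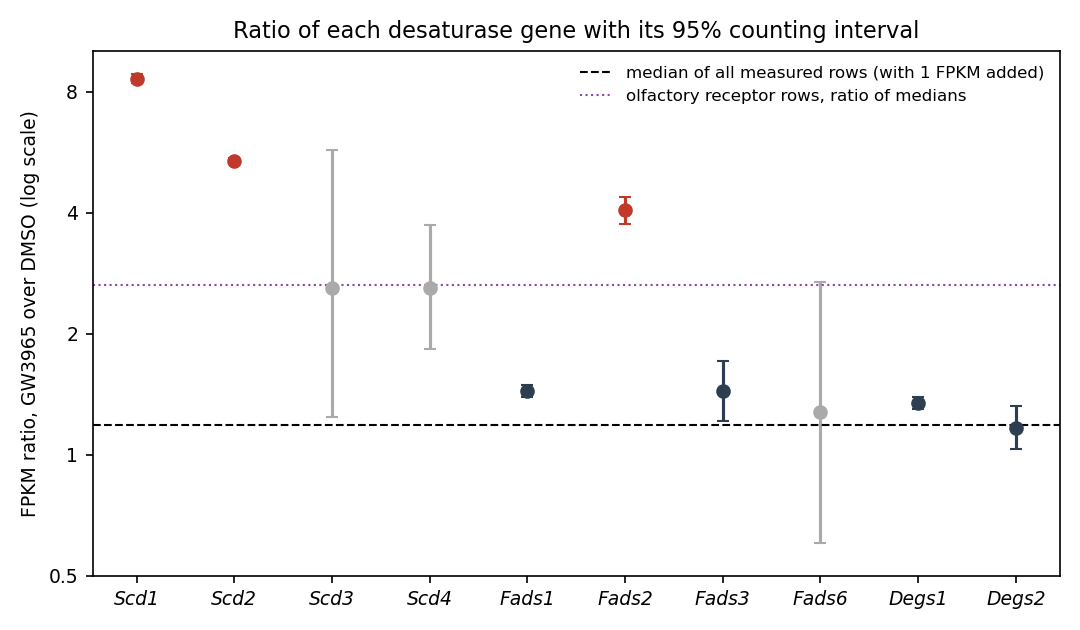
Ratio of GW3965 over DMSO FPKM of each desaturase gene, with nothing added, on a log axis with its 95% counting interval; red points are genes higher by 1.5-fold, grey points are genes below the filter on low values, the dashed line is the median of all measured rows with 1 FPKM added and the dotted line the ratio of medians of the olfactory receptor rows, 2.64. Scd1 at 8.62, Scd2 at 5.38 and Fads2 at 4.05 lie far above both lines, and Scd3 at 2.59 and Scd4 at 2.60 lie beside the dotted one.

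The order of the desaturases by level was Scd2, Scd1, Degs1, Fads1, Fads2, Degs2, Fads3, Scd4, Scd3 and Fads6 in the GW3965 library. In the DMSO library it was Scd2, Degs1, Fads1, Scd1, Fads2, Degs2, Fads3, Scd4, Fads6 and Scd3. Scd1 therefore stood above Degs1 and Fads1 with GW3965 and below both with DMSO. In the GW3965 library the intervals of Scd3 and Fads6 overlapped. Those of Fads1 and Fads2 also overlapped there at the reads used here, which may be too few for Fads2. In the DMSO library only Scd3 and Fads6 overlapped among neighbours in the order, and how far any of these would spread over further libraries was not measured.

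Ratios to Degs1, the most abundant of the members within 1.5-fold, hold under any scaling of the libraries. Scd1 was at 3.20 times the Degs1 level in the GW3965 library and 0.4995 times in the DMSO library, a ratio of ratios of 6.41 (6.15 to 6.69). For Scd2 the ratio of ratios was 4.002 (3.85 to 4.16), and for Fads2 it was 3.02 (2.77 to 3.28). For Fads1 it was 1.07 (1.02 to 1.13), so that Fads1 and Degs1 differed between the libraries by nearly the same factor. The 10 genes together summed to 495 FPKM in the GW3965 library and 124 FPKM in the DMSO library. Scd1 and Scd2 gave 26.7% and 53.6% of that sum in the GW3965 library, against 12.4% and 39.8% in the DMSO library, while Degs1 gave 8.34% with GW3965 and 24.8% with DMSO.

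**Figure D3:**
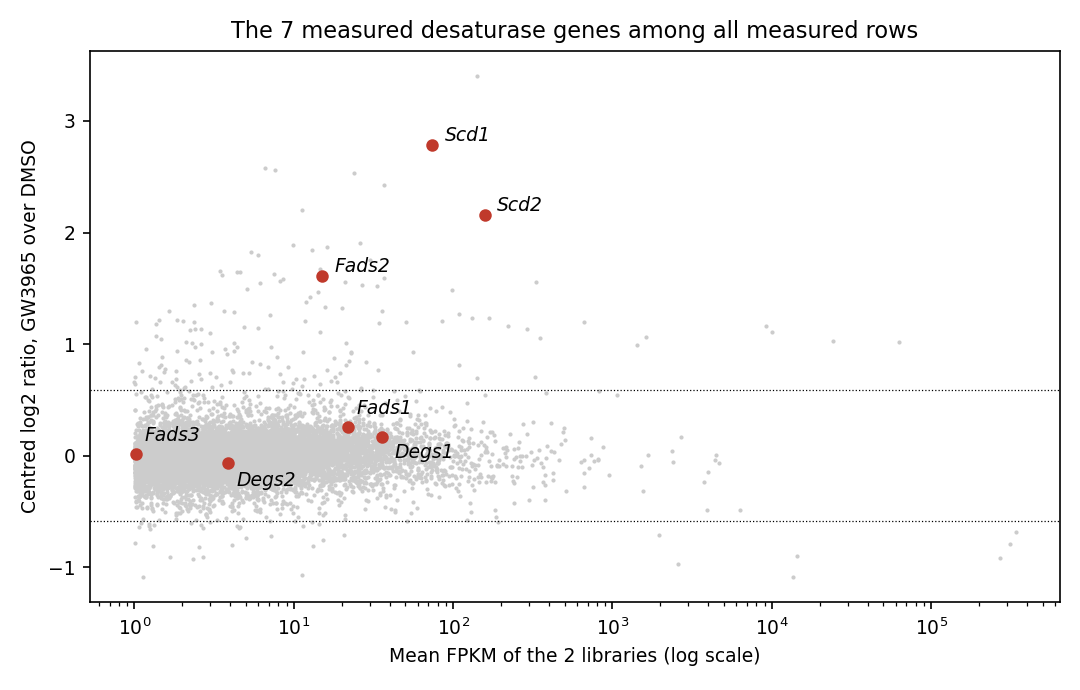
Centred log2 ratio of GW3965 over DMSO, with 1 FPKM added to both before centring, against mean FPKM on a log axis for the measured rows in grey and the 7 measured desaturase genes in red, with dotted lines at 1.5-fold. Scd1 at 2.78, Scd2 at 2.16 and Fads2 at 1.61 lie far above the band of most rows, and Fads1, Fads3, Degs1 and Degs2 lie within it.

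The other genes of the pathway were taken from 7 lists, by step. The lists had 95 entries, and 69 were measured. Of these, 11 were higher by 1.5-fold, or 15.9%, against 3.46% of all measured rows, and 8 were higher after centring, or 11.6%, against 1.38%. The lists were drawn up with earlier results of these data known, so these shares are descriptions. For a single list, a count of 0 or 1 is near the 3.46% of all measured rows. Such a count says little about the step as a whole. As deposited or centred, none was lower. Over the 69 the median log2 ratio was 0.29, against 0.24 for all measured rows, and its centred value was 0.04.

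Desaturases take electrons from NADH through cytochrome b5 and its reductase, and none of the 6 measured electron donor genes was higher, or 1 when scaled to the same sum of FPKM. Of the cytochrome b5 genes, Cyb5b had 31.7 FPKM in the GW3965 library and 24.5 FPKM in the DMSO library, a ratio of 1.29. Cyb5, the row of the gene now named Cyb5a, had 38.4 FPKM with GW3965 and 31.3 FPKM with DMSO. The reductase Cyb5r3 had 25.1 FPKM with GW3965 and 22.0 FPKM with DMSO, and its relative Cyb5r1 8.03 FPKM with GW3965 and 7.11 FPKM with DMSO. Por, the reductase of cytochrome P450 enzymes, had 30.6 FPKM with GW3965 and 30.8 FPKM with DMSO. The median log2 ratio of the list was 0.23, close to that of all rows.

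The genes that supply fatty acids included 4 of 8 measured ones that were higher. Fasn, the fatty acid synthase that makes palmitate, had 42.9 FPKM in the GW3965 library and 8.90 FPKM in the DMSO library, a ratio of 4.82 (4.70 to 4.94). Acaca, the acetyl-CoA carboxylase that makes malonyl-CoA, had 12.6 FPKM with GW3965 and 5.63 FPKM with DMSO, a ratio of 2.24 (2.17 to 2.32). Mid1ip1, which helps the carboxylase polymerise, had 30.4 FPKM with GW3965 and 12.1 FPKM with DMSO. Acss2, an acetyl-CoA synthetase, had 2.08 FPKM with GW3965 and 1.02 FPKM with DMSO and was higher as deposited but not after centring. The list's median log2 ratio was 0.59, or 0.34 after centring. With the libraries scaled to the same sum of FPKM, which raises every ratio, the count was 5.

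Elongases lengthen the chains before and between the desaturase steps, and 1 of 9 measured genes was higher. This was Elovl5, which elongates the product of Fads2, with 26.3 FPKM in the GW3965 library and 12.8 FPKM in the DMSO library, a ratio of 2.06 (1.98 to 2.14). Elovl6, which makes stearate from palmitate, had 2.26 FPKM with GW3965 and 1.28 FPKM with DMSO and did not reach 1.5-fold on the scale with 1 FPKM added. Hsd17b12, the reductase of the elongation cycle, had 21.8 FPKM with GW3965 and 15.3 FPKM with DMSO, and Ptplad2, a dehydratase-like gene now named Hacd4, had 13.3 FPKM with GW3965 and 9.28 FPKM with DMSO. The count of elongation genes was 3 with a pseudocount of 0.1 FPKM, 2 with 0.5 FPKM, 5 when scaled to the same sum of FPKM and 0 at a 2-fold limit.

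Among genes that activate and esterify fatty acids, 4 of 17 measured ones were higher. Acsl3, an acyl-CoA synthetase, had 19.8 FPKM in the GW3965 library and 5.56 FPKM in the DMSO library, a ratio of 3.57 (3.401 to 3.745). Lpcat3, which puts polyunsaturated chains into phospholipids, had 30.7 FPKM with GW3965 and 9.69 FPKM with DMSO, a ratio of 3.17 (3.04 to 3.30). Acsl4, the synthetase that prefers arachidonate, had 45.7 FPKM with GW3965 and 22.1 FPKM with DMSO. Gpam, the first acyltransferase of glycerolipid synthesis, had 4.92 FPKM with GW3965 and 2.90 FPKM with DMSO and was higher as deposited only. The other 13 stayed within 1.5-fold, the count was 7 when scaled to the same sum of FPKM, and the list's median log2 ratio was 0.22, or -0.02 after centring.

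Ceramide synthesis, the pathway of Degs1 and Degs2, had 1 higher gene of 13 measured and none after centring. The count was 6 when scaled to the same sum of FPKM and 0 at a 2-fold limit. The gene was Sgms2, a sphingomyelin synthase, with 11.96 FPKM in the GW3965 library and 7.01 FPKM in the DMSO library. The ceramide synthase Cers2 had 27.9 FPKM with GW3965 and 20.1 FPKM with DMSO, the serine palmitoyltransferase subunit Sptssa 42.0 FPKM with GW3965 and 28.8 FPKM with DMSO, and the other sphingomyelin synthase Sgms1 6.07 FPKM with GW3965 and 4.24 FPKM with DMSO. The 3 measured genes for related lipid desaturases and hydroxylases had none past 1.5-fold, or 1 when scaled to the same sum of FPKM. Sc5d and Msmo1, which act on sterols, had 50.8 and 21.9 FPKM in the GW3965 library, against 35.7 and 17.3 FPKM in the DMSO library. Tmem189, which makes plasmalogens, had 69.7 FPKM in the GW3965 library and 75.04 FPKM in the DMSO library.

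Of 13 measured regulators of desaturase genes, 1 was higher. This was Srebf1, the lipogenic transcription factor, with 33.0 FPKM in the GW3965 library and 8.74 FPKM in the DMSO library, a ratio of 3.77 (3.65 to 3.90). Its sterol-responsive relative Srebf2 had 18.4 FPKM with GW3965 and 18.1 FPKM with DMSO. The LXR genes themselves, Nr1h3 and Nr1h2, had 10.1 and 6.48 FPKM in the GW3965 library, against 7.80 and 5.87 FPKM in the DMSO library. Insig1, which holds SREBP proteins back in the endoplasmic reticulum, had 55.8 FPKM with GW3965 and 37.2 FPKM with DMSO, and the protease gene Mbtps2 9.07 FPKM with GW3965 and 5.84 FPKM with DMSO. Ppard, a nuclear receptor for fatty acids, had 2.46 FPKM in the GW3965 library and 2.78 FPKM in the DMSO library. The count of regulators was 2 with a pseudocount of 0.1 or 0.5 FPKM and 4 when scaled to the same sum of FPKM. The median log2 ratio of the regulators was 0.18, or -0.07 after centring.

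**Figure D4:**
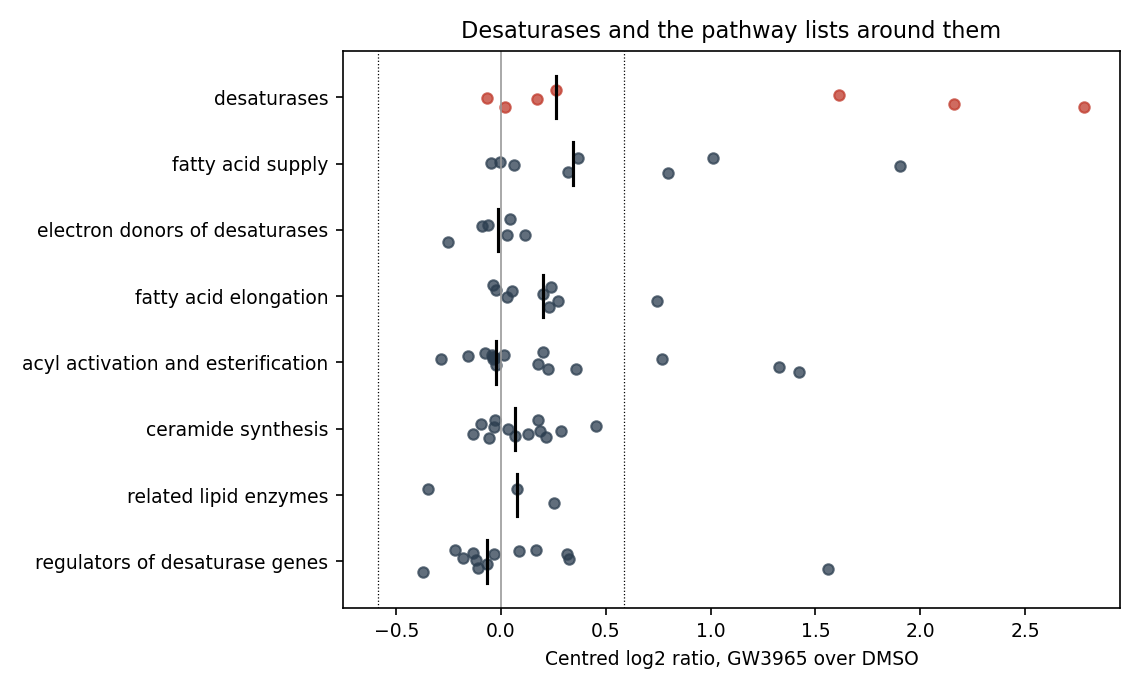
Centred log2 ratio of every measured gene in the desaturase set and in the 7 pathway lists, 1 point per gene with a black bar at the list's median, and dotted lines at 1.5-fold; the height of a point within its row is for legibility only. Points past the upper line come from the desaturases, fatty acid supply, elongation, esterification and the regulators, and no point lies past the lower line.

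The Scd genes form 1 cluster and Fads1, Fads2 and Fads3 another, both on chromosome 19 in GRCm38 and GENCODE M21. The Scd cluster spans 204611 bases, with Scd3 at 44203269 to 44244016, Scd2 at 44293674 to 44306864 and Scd4 at 44333092 to 44346743 on the plus strand and Scd1 at 44394455 to 44407879 on the minus strand. Within it the high genes Scd2 and Scd1 flank the nearly silent Scd4. The Fads cluster spans 155309 bases, with Fads3 at 10041569 to 10060110 and Fads1 at 10182888 to 10196877 on the plus strand and Fads2 at 10062765 to 10101746 on the minus strand between them. The remaining genes stand alone, on the minus strand of chromosome 11 at 115279622 to 115297663 for Fads6, of chromosome 1 at 182275772 to 182282804 for Degs1 and of chromosome 12 at 108678711 to 108702315 for Degs2.

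The genes beside the desaturases were described in the same way. Within 100 kb of a member, 26 other genes had a row, and 16 of them were measured. None was higher by 1.5-fold as deposited or after centring, and none was lower after centring. Among all measured rows 3.46% were higher as deposited and 1.38% after centring, so a count of 0 among 16 is near the background. Their median centred log2 ratio was -0.15. The lowest was -0.48 for Fth1, the ferritin heavy chain, with 3587 FPKM in the GW3965 library and 4233 FPKM in the DMSO library. The highest was 0.27 for Chuk, a kinase of the NF-kappa-B pathway, with 11.5 FPKM in the GW3965 library and 7.74 FPKM in the DMSO library. Within 100 kb of Fads2, Rab3il1, Best1 and Fen1 had centred log2 ratios of -0.40, -0.22 and -0.17, against 1.61 for Fads2 itself. On the far side of Fads1, Tmem258, Myrf and Dagla had -0.13, -0.36 and -0.22. Cwf19l1 and Bloc1s2, the nearest measured genes to the Scd cluster, had 0.03 and 0.14.

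**Figure D5:**
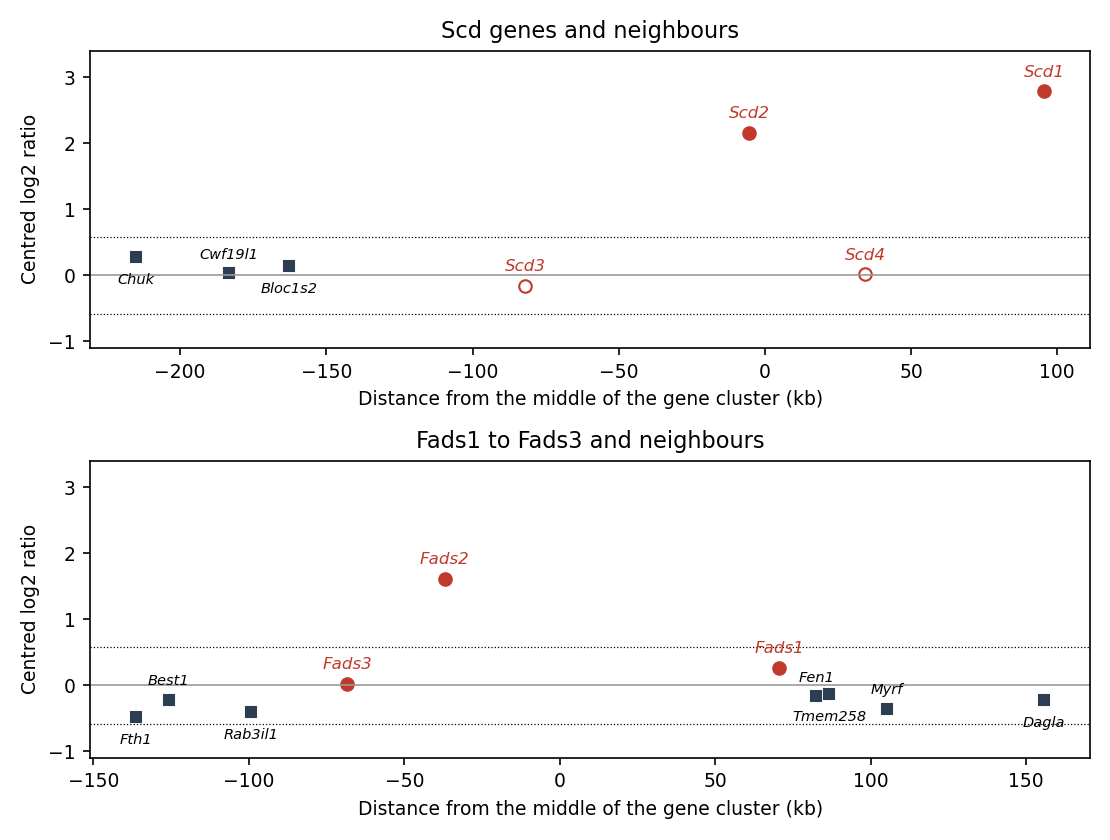
Centred log2 ratio of the desaturase genes (red circles) and their measured neighbours (squares) in and around the Scd and Fads clusters, against distance along the chromosome from the middle of the cluster in kilobases; dotted lines mark 1.5-fold and open circles are desaturases below the filter on low values. Scd1 at 2.78, Scd2 at 2.16 and Fads2 at 1.61 stand above the measured neighbours, which lie between -0.48 and 0.27, while Fads1 at 0.26 and Fads3 at 0.02 lie near 0.

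The genes closest to each higher desaturase in centred log2 ratio were found over all measured rows with a gene symbol, apart from Gm, Rik and pseudogene rows, as a description of 2 libraries. For Scd1, at 2.78, the nearest were Ighm, the heavy chain of IgM and a B cell gene, at 2.43 and Abca1 at 3.404. Scd2 came next. For Scd2, at 2.16, they were Fasn at 1.90 and Ighm. Ighm had 64.4 FPKM with GW3965 and 9.26 FPKM with DMSO. For Fads2, at 1.61, they were Pltp, a phospholipid transfer protein, at 1.60 and the tropomyosin-related row Tpm3-rs7 at 1.65.

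The cells' label was set beside marker genes. All 9 macrophage markers were measured, with a summed level of 6082 FPKM in the GW3965 library and 5073 FPKM in the DMSO library. Most of that sum came from Lyz2, with 4822 FPKM with GW3965 and 4052.5 FPKM with DMSO. The lowest was Fcgr1, with 2.01 FPKM with GW3965 and 1.08 FPKM with DMSO. The engulfment receptor Mertk was the only 1 of the 9 that was higher, with 13.9 FPKM in the GW3965 library and 6.79 FPKM in the DMSO library. None of the 4 markers of resident large peritoneal macrophages was measured, and Gata6, the factor that defines them, had 0.618 FPKM in the GW3965 library and 0.607 FPKM in the DMSO library. Adipocytes, which are rich in Scd1, had none of their 6 markers measured, and these summed to 0.398 FPKM in the GW3965 library and 0.201 FPKM in the DMSO library. Of 7 mesothelial and fibroblast markers 4 were measured, with sums of 24.0 FPKM with GW3965 and 15.9 FPKM with DMSO. Of these Dcn, a matrix proteoglycan, was higher as deposited, with 11.6 FPKM in the GW3965 library and 6.91 FPKM in the DMSO library, and not after centring. The part of these other cells in the desaturase values was not tested. Hepatocyte, T cell and mast cell markers were all below the filter. Of 4 B cell markers 2 were measured, and of 3 neutrophil markers 1 was measured. The B cell and neutrophil markers summed to 3.94 and 3.89 FPKM in the GW3965 library, against 2.67 and 3.47 FPKM in the DMSO library. Ighm, the B cell gene named above, was not among these markers and had 64.4 FPKM with GW3965 and 9.26 FPKM with DMSO. The part of B cells in the desaturase values was not tested.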

How the data were processed

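RNA of 2 mouse peritoneal macrophage samples was sequenced by the authors, 1 per group. The authors' deposited table gives FPKM values. STAR 2.3.0, HTSeq 0.5.4p3 and the build mm10 (GRCm38) are named in the submitters' processing notes. The annotation, strand setting, treatment of reads with several matches and filters were not given in the sources used here. Depths were recovered as the values at which low FPKM values became whole reads at a whole length. This held for 50526 of the 50535 rows above 0, within the rounding of the last decimal, and the step was tested on simulated data. The smallest such length was used, so intervals are at least as wide as the true ones.

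No test was made. Log2 ratios used a pseudocount of 1 FPKM. The members and lists were chosen with earlier results of these data known. Named were all members, up to 4 measured genes per list with the largest absolute centred log2 ratio, LXR target checks, neighbours within 100 kb and the 2 most alike rows with a gene symbol. Srebf2, Nr1h3, Nr1h2 and Cyb5, and the choice among marker genes and neighbours, fall outside this rule and were named after their values were seen. RefSeq synonyms served to match older symbols, and Cers1 and Faxdc2 had no match. Sequences came from the GENCODE M21 transcripts, and their GRCm38 positions from the M21 exons. Alternatives were other pseudocounts, filters, scalings and a 2-fold limit. The software was Python 3.11.15 with scipy 1.17.1, pandas 2.3.3, matplotlib 3.10.9 and numpy 2.4.6.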

Additional observations from a re-analysis of the deposited data

How the results depend on the processing

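The count of 3 higher desaturase genes was the same under pseudocounts of 0.1 and 0.5 FPKM, no filter, a mean of at least 5 FPKM, the same upper quartile, both centrings and a 2-fold limit. Scaling to the same sum of FPKM gave 5, with Fads1 at 0.76 and Degs1 at 0.68 added on the log2 scale. That sum is dominated by 3 rows. The count of lower genes stayed 0 in all of these. The median log2 ratio of 0.50 became 0.34 with no filter, 1.85 at a mean of at least 5 FPKM, which keeps fewer genes, 0.76 with the same sum, 0.22 with the same upper quartile, 0.26 centred on measured rows and 0.27 centred on those with a gene symbol. Of 60 alternative values for single members, 32 moved by less than the counting interval, 28 by more, and no called value changed sign; 7, for Degs2, Scd3 and Fads6, fell below 0. Of 126 alternative counts of the pathway lists, 111 stayed within 1.5 times and 15 did not. No paired analysis was possible because GW3965 and DMSO had 1 library each. Depth limits Scd3 and Fads6, with 12 to 23 reads in each library, and the spread between mice, cultures or preparations was not measured.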
